A study of Mus musculus with 24 samples.

Results

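The loss of PPARα was compared between the liver and the heart of male mice, gene by gene. In each tissue the mean of the 3 wild-type (WT) pools was subtracted from the mean of the 3 knockout (KO) pools, and the heart difference was then subtracted from the liver difference. A negative value therefore means that a gene was lower in KO liver, relative to its own WT, than in KO heart, and a positive value means the opposite. The samples were chosen by the pool numbers in their titles, pools 1 to 6 of each tissue, which gave 12 of the 24 arrays in the series. Of 18193 genes, 10544 had a WT or KO mean above the median of all probe sets in both tissues (a log2 intensity of 2.454 in liver and 3.035 in heart) and are called measured in both tissues. A further 1727 were above it in liver but near background in heart, 1300 were above it in heart but near background in liver, and 4622 were near background in both. The samples were chosen by label alone, and every effect was tested over all 18193 genes. Since a KO mean can carry a gene over the median, the level rule is not independent of the KO effect, and genes admitted that way are named below.

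The series profiled whole liver and whole heart of Ppara WT and Ppara KO SV129 mice of both sexes on Affymetrix arrays. The mice were about 10 to 12 weeks old, were killed at zeitgeber time 14 (hours after lights on), and received no treatment that the labels name. Each group was 3 arrays, and each array held RNA pooled from 4 animals, so that 12 male mice stand behind each genotype and the replicate is the pool. Liver WT and heart WT are pools 1 to 3, and liver KO and heart KO are pools 4 to 6. The labels call the mice knock-outs and name neither the allele nor the exon removed, and they do not say whether a liver pool and a heart pool of one number came from the same animals. Values are log2 intensities after robust multi-array averaging (RMA). The medians of the liver arrays lay between 2.43 and 2.493 and those of the heart arrays between 3.014 and 3.069, which sets the scales of the tissues apart, so KO effects are compared between tissues and levels are not.

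PPARα is a nuclear receptor that binds DNA as a heterodimer with RXR and is activated by fatty acids. In liver it is known for switching on the uptake, peroxisomal and mitochondrial oxidation of fatty acids and the making of ketone bodies during fasting. In heart it is known for sustaining the fatty acid oxidation that supplies most of the energy for contraction, and there other PPARs are expressed beside it. Mitochondrial β-oxidation takes up acyl groups through the carnitine shuttle and shortens them in a cycle of dehydrogenases, hydratases and thiolases, with auxiliary isomerases and reductases for unsaturated chains. Peroxisomes run a parallel route for very long and branched chains.

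Ppara itself was checked first. In liver its probe set read 8.67, 8.31 and 8.48 in the WT pools and 7.50, 7.34 and 7.27 in the KO pools, and in heart 7.07, 6.92 and 6.73 in WT and 6.13, 5.38 and 5.45 in KO. The groups did not overlap in either tissue, and the KO pools remained far above the array median. Its other 2 probe sets changed by -0.90 and -1.25 in liver and by -1.06 and -1.08 in heart. The files do not say which of these probe sets lie in the deleted part. Defining markers matched the tissue labels: the median of 13 hepatocyte markers was 12.33 to 12.46 in the male livers and 3.15 to 3.66 in the male hearts, and the median of 15 cardiomyocyte markers was 12.57 to 12.69 in the male hearts and 2.22 to 2.37 in the male livers. One library went against its label in Xist. Heart KO pool 4, labelled male, read 6.62 for Xist, an RNA made from the silenced X chromosome in female cells, where the other male hearts read 2.80 to 3.12 and the female hearts 7.32 to 8.03. The same pool kept a Y-linked signal (Eif2s3y at 4.49, against 4.64 to 5.67 in the other male hearts) and had a median of 4.54 over 22 skeletal muscle markers, against 3.00 to 3.44. Among the female hearts, KO pool 10 read 3.34 for Eif2s3y against 1.96 to 2.50 in the others. In liver, Eif2s3y read 4.73 to 5.18 in the male WT pools and 3.43, 3.08 and 4.46 in the male KO pools, against 1.91 to 2.16 in the female livers. Its fall of 1.31 in KO liver passed the threshold used below (limma adjusted p = 0.0373), while its difference from heart did not (-1.34, adjusted p = 0.408). Main counts are therefore also given without heart KO pool 4, and the comparison with females without heart pool 10.

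In males the KO effect differed between liver and heart for 94 of 18193 genes (0.517% of all genes tested), 49 of them with a negative difference (0.269%) and 45 with a positive one (0.247%). The test was limma's moderated statistic in a model of all 24 arrays, with Benjamini-Hochberg adjustment over all genes and a threshold of 0.05 on the adjusted p. Of the 94 genes, 68 were measured in both tissues, which is 0.645% of the 10544 such genes, with 33 negative and 35 positive differences. In 58 of the 68 both the WT and the KO mean were above the median in each tissue (0.607% of 9548 such genes). Another 5 were admitted through their KO mean in one tissue (Btnl9, Pdk4, Synj2, Ttc30b and Vldlr, all in liver), so that a KO mean above the WT mean is built in there, and 5 through their WT mean (Cdhr5, Cox6b2, Gm20559, Nnmt and Pctp). A further 16 were near background in heart and 10 near background in liver. Without heart KO pool 4, 77 genes passed (0.423%): 73 of the 94 remained, 21 were lost and 4 were gained (Birc3, Ccl25, Hspa1a and Nt5e), and each of the 94 kept its sign. Over all genes the median difference was 0.0031. These are bulk tissues, in which fewer cells of a type and less RNA per cell cannot be told apart.

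The 68 genes were sorted by the tissue in which the KO effect itself passed the threshold. For 36 genes it passed in liver alone (22 lower and 14 higher in KO), for 16 in heart alone (13 lower and 3 higher), for 3 in both tissues and for 13 in neither. The 3 genes that moved in both tissues were Eci1, Eci2 and Decr1, and all fell in both. No gene of the 68 passed in the 2 tissues with opposite signs. Without heart KO pool 4, 55 genes measured in both tissues passed, 30 of them in liver alone (18 lower and 12 higher), 18 in heart alone (13 lower and 5 higher), 3 in both and 4 in neither. For 11 of the 68 the other tissue had little room for a fall: the WT level there lay above the array median by less than the fall in the responding tissue (6 genes that fell in liver and 5 that fell in heart). Single within-tissue tests gave 79 genes lower (0.434%) and 31 higher (0.17%) in KO liver, and 58 lower (0.319%) and 15 higher (0.0824%) in KO heart. Without pool 4 the heart gave 57 lower and 16 higher, again 73 in all (0.401%), and 60 genes were in both counts. The liver total of 110 rested on each pool more than the heart total of 73 did: without liver WT pool 1, 2 or 3 or KO pool 5 it was 60, 60, 69 and 55. Of the 51 genes named below with a difference past the threshold, 38 kept it whichever 1 of the 12 pools was left out, and the exceptions are given with their pools.

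**Figure D1:**
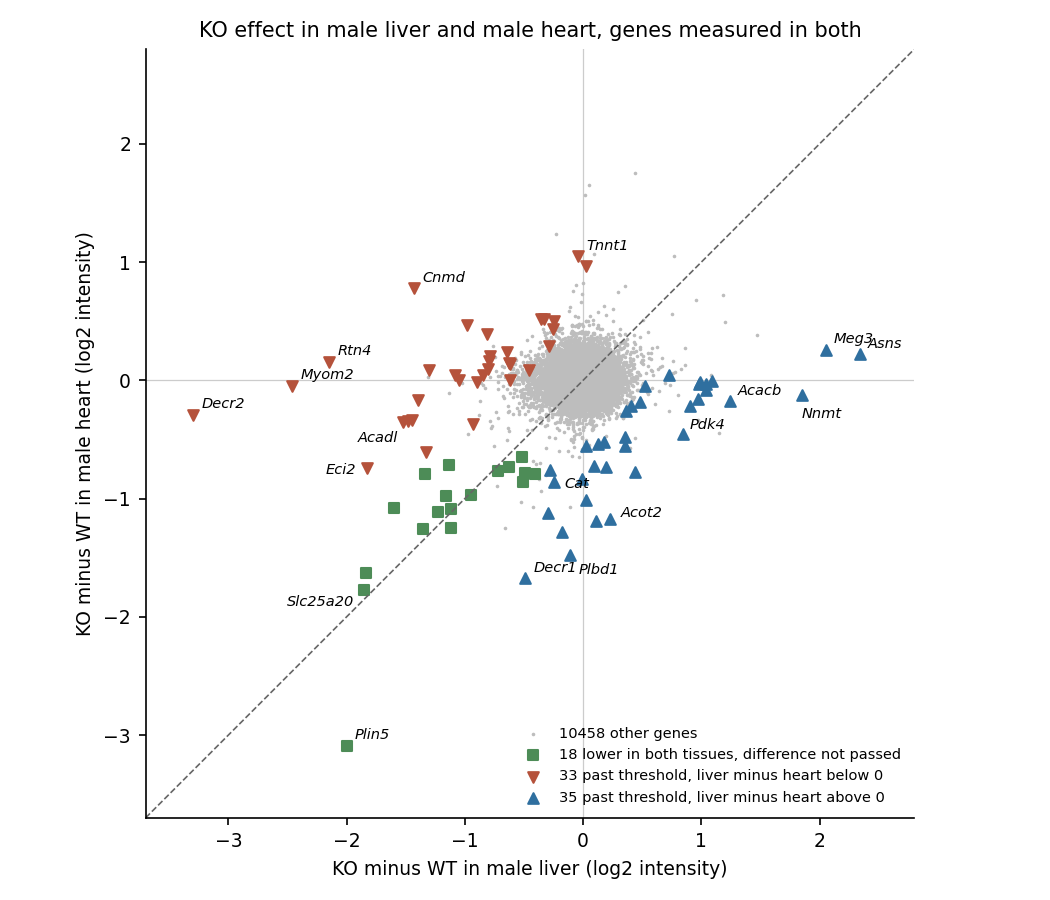
KO minus WT (log2 intensity, mean of 3 pools minus mean of 3 pools) in male liver on the horizontal axis and in male heart on the vertical axis for the 10544 genes measured in both tissues; points on the dashed diagonal moved equally. Triangles mark the 33 genes with a negative and the 35 with a positive difference between tissues past the threshold, and green squares the 18 genes that were lower in both tissues without a difference past it.

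Promoter sequences were read for 8 of the genes described below, to show what lies upstream of genes that fell more in liver, more in heart or in both. They are RefSeq windows of the GRCm38.p6 build, 250 bases before to 50 bases after the annotated start, written 5′ to 3′ on the gene's strand. They were searched on both strands for AGGTCA, the core hexamer of the PPAR and RXR element, and for its direct repeat with a spacer base, written as AGGNCANAGGNCA. Capitals mark a match, and the hexamer can overlap the repeat. Decr2 (chr17:26090115-26090414, minus strand), Eci2 (chr13:34994095-34994394, minus strand) and Acadl (chr1:66863260-66863559, minus strand) fell more in liver and hold neither.
Decr2: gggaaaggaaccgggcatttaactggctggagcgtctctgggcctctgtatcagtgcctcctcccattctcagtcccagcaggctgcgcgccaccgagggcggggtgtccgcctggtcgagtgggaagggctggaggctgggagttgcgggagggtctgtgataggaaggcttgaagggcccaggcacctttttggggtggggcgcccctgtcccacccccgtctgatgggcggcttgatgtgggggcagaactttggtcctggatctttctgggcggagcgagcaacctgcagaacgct
Eci2: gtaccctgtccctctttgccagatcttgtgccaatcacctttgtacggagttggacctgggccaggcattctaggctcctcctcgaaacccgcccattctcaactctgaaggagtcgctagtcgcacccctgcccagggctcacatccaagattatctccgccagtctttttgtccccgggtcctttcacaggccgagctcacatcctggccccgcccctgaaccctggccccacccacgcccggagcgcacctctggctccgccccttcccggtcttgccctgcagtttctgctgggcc
Acadl: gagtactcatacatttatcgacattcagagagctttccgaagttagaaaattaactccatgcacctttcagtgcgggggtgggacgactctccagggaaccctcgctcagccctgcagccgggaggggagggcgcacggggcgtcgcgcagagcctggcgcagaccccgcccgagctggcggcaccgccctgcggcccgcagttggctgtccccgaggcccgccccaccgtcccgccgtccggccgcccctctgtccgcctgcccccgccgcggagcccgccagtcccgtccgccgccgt

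Acadm (chr3:153944594-153944893, minus strand), Cat (chr2:103485104-103485403, minus strand) and Igsf23 (chr7:19950694-19950993, minus strand) fell in heart with a positive difference and were picked because they hold a match. Acadm and Cat hold the hexamer, its first base lying 249 and 204 bases before the start. Igsf23 holds the repeat, on the other strand, from 72 bases before the start, while the window of its other annotated start holds neither motif.
Acadm: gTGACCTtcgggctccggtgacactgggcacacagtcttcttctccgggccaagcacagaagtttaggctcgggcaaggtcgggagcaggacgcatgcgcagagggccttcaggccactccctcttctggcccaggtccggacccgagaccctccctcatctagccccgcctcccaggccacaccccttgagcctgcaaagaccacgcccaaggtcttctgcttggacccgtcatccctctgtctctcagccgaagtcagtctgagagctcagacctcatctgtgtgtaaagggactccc
Cat: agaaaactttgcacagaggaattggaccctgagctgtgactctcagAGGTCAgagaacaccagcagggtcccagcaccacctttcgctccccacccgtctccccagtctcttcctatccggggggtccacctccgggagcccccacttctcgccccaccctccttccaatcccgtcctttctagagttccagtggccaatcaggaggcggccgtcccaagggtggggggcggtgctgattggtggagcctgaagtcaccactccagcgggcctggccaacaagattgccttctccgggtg
Igsf23: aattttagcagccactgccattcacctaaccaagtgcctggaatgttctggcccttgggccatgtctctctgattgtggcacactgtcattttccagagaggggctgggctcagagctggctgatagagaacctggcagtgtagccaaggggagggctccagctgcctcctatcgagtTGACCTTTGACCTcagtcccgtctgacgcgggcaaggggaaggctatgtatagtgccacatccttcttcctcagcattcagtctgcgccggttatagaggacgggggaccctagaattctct

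Plin5 (chr17:56117499-56117798, minus strand, the upstream of 2 annotated starts) and Acadvl (chr11:70015379-70015678, minus strand) were lower in both tissues and were also picked for a match. Their hexamers begin 170 and 87 bases before the start.
Plin5: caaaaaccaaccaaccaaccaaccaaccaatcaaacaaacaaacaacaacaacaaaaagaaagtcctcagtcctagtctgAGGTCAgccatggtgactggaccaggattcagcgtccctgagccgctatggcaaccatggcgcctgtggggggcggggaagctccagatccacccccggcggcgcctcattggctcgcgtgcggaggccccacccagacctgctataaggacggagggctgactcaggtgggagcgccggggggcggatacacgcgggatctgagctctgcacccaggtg
Acadvl: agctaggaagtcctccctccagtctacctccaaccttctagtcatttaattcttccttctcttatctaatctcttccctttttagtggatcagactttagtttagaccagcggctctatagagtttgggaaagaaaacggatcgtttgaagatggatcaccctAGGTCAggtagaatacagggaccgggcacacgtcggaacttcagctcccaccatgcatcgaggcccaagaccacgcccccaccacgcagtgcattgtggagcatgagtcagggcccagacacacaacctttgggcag

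Of 32851 promoters in the table, 16.3% hold the hexamer and 0.381% the repeat, and the shares of genes with a match in any of their promoters are 18.1% and 0.451%. None of the 19 genes with a promoter in the table (of 24) that were measured in both tissues, fell in liver and had a negative difference held either motif. Of 12 genes (of 14) that fell in heart with a positive difference, 3 held the hexamer and 1 of these the repeat. Of the 18 genes lower in both tissues without a difference past the threshold, 2 held the hexamer and none the repeat. These are matches of letters in one short window, and elements inside introns or farther upstream were not searched.

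Of the 32 lists, mitochondrial β-oxidation had the most members past the threshold in each tissue. Of 19 measured members, 12 fell in liver and 12 fell in heart, 10 of them in both. Over all genes 0.434% fell in liver and 0.319% in heart. Acadl and Etfb passed in liver alone, Acaa2 and Acadm in heart alone, and Acad9, Cpt1a, Echs1, Etfa and Hadh in neither. The difference between tissues passed for 6 members, 3 in each direction, against 0.517% of all genes. The median difference over the list was -0.027, beside 0.0031 over all genes. Without heart KO pool 4 there were again 12 in heart and 3 differences in each direction. The list therefore split between members that fell more in liver, members that fell more in heart and members whose difference was not resolved.

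Acadl, the long-chain acyl-CoA dehydrogenase that opens a round of the cycle, fell more in liver. It read 8.44, 8.31 and 8.55 in WT liver and 7.06, 6.98 and 6.82 in KO liver, a change of -1.48, and 11.30, 11.33 and 11.31 in WT heart and 10.99, 10.98 and 10.92 in KO heart, a change of -0.35 (adjusted p = 0.0915). The pools did not overlap in either tissue, although the heart change did not pass. Here and below, absence of overlap between 3 and 3 pools is a description and not a test. Its share over all genes is not given. The difference between tissues was -1.13 (95% interval -1.37 to -0.89, limma adjusted p = 3.04e-06). A second, dim probe set gave 0.16 (1.93 in WT liver and 2.56 in WT heart, below the array medians), and the mean of both probe sets -0.49 (adjusted p = 0.0116). Eci2 and Eci1, the enoyl-CoA isomerases that move double bonds of unsaturated chains into the position the cycle can use, fell in both tissues and further in liver. Eci2 read 8.49, 8.37 and 8.39 in WT liver, 6.60, 6.62 and 6.53 in KO liver, 8.62, 8.47 and 8.58 in WT heart and 7.90, 7.81 and 7.73 in KO heart. That is 3.56-fold lower in liver and 1.67-fold lower in heart, with a difference of -1.09 (95% interval -1.37 to -0.81, limma adjusted p = 5.07e-05). Eci1 read 8.80, 8.73 and 8.65 in WT liver, 7.51, 7.40 and 7.28 in KO liver, 10.30, 10.33 and 10.37 in WT heart and 9.76, 9.76 and 9.64 in KO heart. It was 2.52-fold lower in liver and 1.53-fold lower in heart, with a difference of -0.72 (95% interval -0.96 to -0.48, limma adjusted p = 0.00165). For both isomerases every KO pool lay below every WT pool of its tissue.

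Decr1, the mitochondrial dienoyl-CoA reductase for polyunsaturated chains, went the other way. It read 8.39, 8.24 and 8.42 in WT liver and 7.94, 7.76 and 7.87 in KO liver, and 9.20, 9.21 and 9.35 in WT heart and 7.58, 7.54 and 7.62 in KO heart. With this probe set the fall was 1.40-fold in liver and 3.19-fold in heart, and the difference was 1.18 (95% interval 0.94 to 1.42, limma adjusted p = 2.53e-06). The other Decr1 probe set changed by -1.03 in liver and -1.77 in heart. Its smaller difference of 0.74 has the same sign but lies below that interval. Acadm, the medium-chain acyl-CoA dehydrogenase, fell in heart alone. It read 11.56, 11.45 and 11.64 in WT heart and 10.98, 11 and 10.99 in KO heart, and its liver pools overlapped at 9.74, 9.63 and 9.79 in WT and 9.79, 9.74 and 9.72 in KO. The liver change was 0.028 and the difference was 0.59 (95% interval 0.36 to 0.81, adjusted p = 0.00615 by limma). Acaa2, the thiolase that closes the cycle, read 10.80, 10.83 and 10.83 in WT heart and 10.07, 10.12 and 9.99 in KO heart, a change of -0.76. In liver it read 10.80, 10.88 and 10.94 in WT and 10.62, 10.54 and 10.62 in KO, without overlap but with a change of -0.28 that did not pass (adjusted p = 0.197). The difference for Acaa2 was 0.48 (limma adjusted p = 0.0198), and its probe set is one that can cross-hybridize to related transcripts. It was lost when liver pool 1, 2, 4 or 6 or heart pool 2, 3 or 6 was left out (adjusted p of 0.051 to 0.0776).

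**Figure D2:**
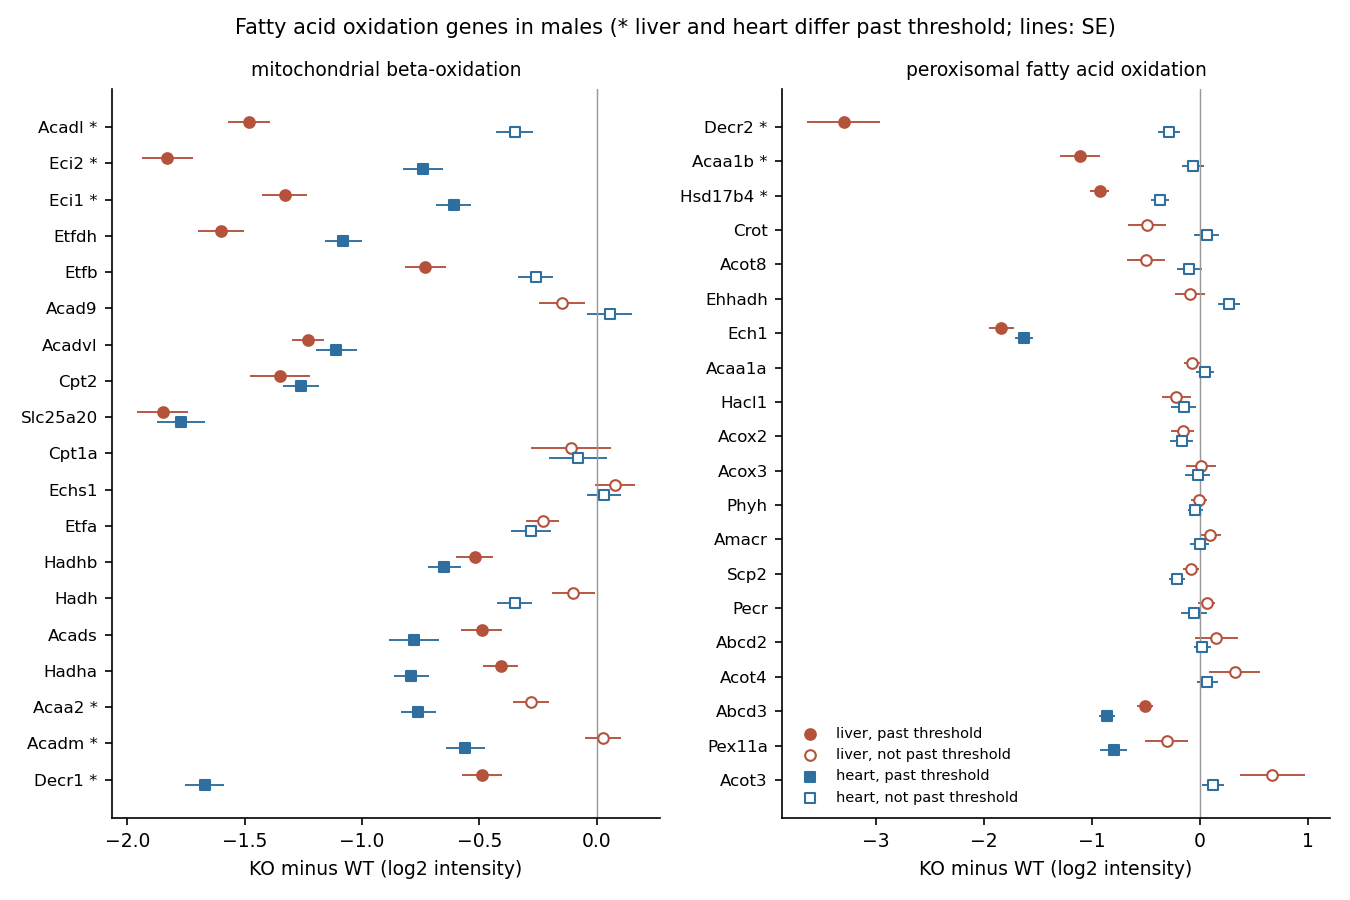
KO minus WT (log2 intensity) with its standard error in male liver (red circles) and male heart (blue squares) for 19 mitochondrial and 20 peroxisomal oxidation genes; filled symbols passed the threshold within their tissue and an asterisk marks a difference between tissues past it. Acadl, Eci2 and Eci1 sit further left in liver, and Decr1, Acadm and Acaa2 further left in heart. Slc25a20, Cpt2 and Acadvl lie side by side on the probe set used for each gene.

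Other members fell in both tissues with no difference between them past the threshold, among them Slc25a20, Cpt2 and Acadvl. Cpt1a, the outer carnitine acyltransferase that starts the entry of long chains, changed by -0.11 in liver and -0.081 in heart and passed in neither. Slc25a20, the carnitine-acylcarnitine carrier of the inner membrane, read 8.58, 8.60 and 8.45 in WT liver and 6.67, 6.64 and 6.77 in KO liver, and 8.65, 8.65 and 8.72 in WT heart and 6.98, 6.77 and 6.94 in KO heart. The KO pools were far below the WT pools in each tissue, by -1.85 in liver and -1.77 in heart. With this probe set its difference between tissues was -0.077, with a 95% interval of -0.39 to 0.24. A smaller difference than these bounds was not resolved with 3 pools a group. The other Slc25a20 probe set, which can cross-hybridize, changed by -2.65 in liver and -1.81 in heart. Its difference of -0.84 lies outside that interval, so falls of like size in the 2 tissues were seen with the probe set used alone. Equality was not tested. Under the alternatives the difference ran from -0.46 to -0.016 and never passed (lowest limma adjusted p = 0.082). Cpt2, the inner carnitine acyltransferase, changed by -1.35 in liver and -1.26 in heart (difference -0.085, 95% interval -0.39 to 0.22). Acadvl, the very-long-chain dehydrogenase, changed by -1.23 and -1.11 (difference -0.13, 95% interval -0.35 to 0.10). Hadha and Hadhb, the subunits of the trifunctional protein, and Acads, the short-chain dehydrogenase, also fell in both tissues, with differences of 0.38 (limma adjusted p = 0.121), 0.13 and 0.30 that did not pass. Etfdh, which hands the electrons of the dehydrogenases to the respiratory chain, changed by -1.60 in liver and -1.08 in heart, and its difference of -0.52 narrowly missed the threshold (95% interval -0.78 to -0.27, limma adjusted p = 0.0578). Without liver KO pool 4 it passed (-0.63, adjusted p = 0.00819). The 95% intervals are for single genes, and the adjusted p is over all genes.

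Across the transcriptome, 110 genes passed in male liver and 73 in male heart, and 21 passed in both, which is 19.1% of the liver genes and 28.8% of the heart genes. All 21 were lower in KO in both tissues. Without heart KO pool 4, 22 passed in both, these 21 and Hsd17b4, or 22 of 110 liver genes and 22 of 73 heart genes. For 3 of them the difference between tissues passed (Eci1, Eci2 and Decr1) and for 18 it did not. Besides the genes above and Ppara, the 18 include Ech1, a dienoyl-CoA isomerase of peroxisomes and mitochondria, which read 8.20, 8.24 and 8.41 in WT liver, 6.38, 6.57 and 6.37 in KO liver, 11.34, 11.32 and 11.31 in WT heart and 9.68, 9.74 and 9.67 in KO heart. Its pools were well apart in both tissues and its difference was -0.22 (95% interval -0.50 to 0.067). Plin5, the perilipin that couples lipid droplets to mitochondria in oxidative tissues, had the largest heart fall. It read 6.36, 6.18 and 6.01 in WT liver, 4.23, 4.16 and 4.15 in KO liver, 7.48, 7.66 and 7.53 in WT heart and 4.67, 4.32 and 4.42 in KO heart. With this probe set the fall was 4.00-fold in liver and 8.50-fold in heart. Its difference of 1.09 had a wide interval (0.27 to 1.90) and did not pass (limma adjusted p = 0.429), although it passed in a model of the 12 male arrays alone (adjusted p = 0.00208). The other Plin5 probe set, which can cross-hybridize, changed by -2.68 in liver and -3.08 in heart, a smaller difference of 0.41. Retsat, which saturates retinol, changed by -1.12 in liver and -1.09 in heart. Its other probe set changed by -1.66 in liver and -0.97 in heart, a difference of -0.69. Abcd3, a transporter of the peroxisomal membrane, changed by -0.51 and -0.86 (difference 0.35, limma adjusted p = 0.173). The others were Aldh9a1, Dhrs4, Gna12, Hsdl2, Nceh1 and Slc25a22, with differences from -0.55 for Hsdl2 to 0.11 for Slc25a22.

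Most peroxisomal fatty acid oxidation genes passed in neither tissue. Of 20 measured members, 2 passed in both tissues (Ech1 and Abcd3), 3 in liver alone (Decr2, Acaa1b and Hsd17b4), 1 in heart alone (Pex11a) and 14 in neither. The difference between tissues passed for 3 members, all negative, against 0.269% of all genes with a negative one. Its median over the list was 0.016. Without heart KO pool 4 Hsd17b4 also fell in heart, which made 4 there, and 2 differences passed. Of the 20, 15 were measured in both tissues.

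Decr2, the peroxisomal counterpart of Decr1, had the largest difference of any gene measured in both tissues. It read 7.64, 7.54 and 7.59 in WT liver and 3.72, 4.59 and 4.57 in KO liver, a 9.85-fold fall, and 3.60, 3.55 and 3.55 in WT heart and 3.47, 3.08 and 3.29 in KO heart. The heart pools did not overlap either, but their change of -0.29 did not pass (adjusted p = 0.523). The difference was -3.01 (95% interval -3.77 to -2.25, limma adjusted p = 3.71e-05). The WT heart level was only 0.53 above the heart array median, so a fall as large as in liver could not have been seen in heart. The differences of the 2 reductases thus had opposite signs, Decr2 being lower in liver and Decr1 lower in heart.

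Hsd17b4, the bifunctional hydratase and dehydrogenase of peroxisomes, read 9.39, 9.44 and 9.44 in WT liver and 8.51, 8.46 and 8.52 in KO liver, and 7.60, 7.65 and 7.62 in WT heart and 7.41, 7.16 and 7.20 in KO heart. Both tissues were free of overlap, and the difference was -0.56 (limma adjusted p = 0.019), which was lost without heart KO pool 4 (-0.49, adjusted p = 0.0783) and also without liver pool 2, 3 or 5 or heart pool 1 or 3 (0.0535 to 0.0661). Acaa1b, a peroxisomal thiolase near background in heart, fell by 1.11 in liver, and its difference of -1.04 (limma adjusted p = 0.019) was lost without liver pool 3, 4 or 5 or heart pool 1, 3 or 6 (0.0534 to 0.0777). Pxmp4, a peroxisomal membrane protein, read 7.09, 6.91 and 6.76 in WT liver, 5.44, 5.44 and 5.33 in KO liver, 6.30, 6.05 and 5.92 in WT heart and 5.88, 5.60 and 5.72 in KO heart. Its difference was -1.16 (SE 0.203, limma adjusted p = 0.00359), with a gap between WT and KO pools that was wide in liver and narrow in heart. Lonp2 and Cat, peroxisomal proteins outside the list, were picked after their values were seen. Lonp2, the peroxisomal Lon protease, read 8.10, 8.11 and 8.10 in WT liver and 7.43, 7.49 and 7.53 in KO liver, while its heart pools lay between 6.99 and 7.04 in both genotypes. Its difference was -0.62 (limma adjusted p = 0.00303), but -0.23 and not past the threshold with the mean of its probe sets (adjusted p = 0.531). Cat, the catalase that removes peroxisomal hydrogen peroxide, moved the other way. It read 8.69, 8.56 and 8.61 in WT heart and 7.82, 7.71 and 7.75 in KO heart, a change of -0.86, and 11.16, 11.16 and 11.33 in WT liver and 10.94, 10.88 and 11.09 in KO liver, a change of -0.25 that did not pass (adjusted p = 0.406). The difference for Cat was 0.61 (limma adjusted p = 0.0324), near the threshold, and it was lost without liver pool 1, 2, 4 or 6 or heart pool 1, 3, 5 or 6 (0.0608 to 0.109) and with the mean of its probe sets (0.68, adjusted p = 0.147).

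**Figure D3:**
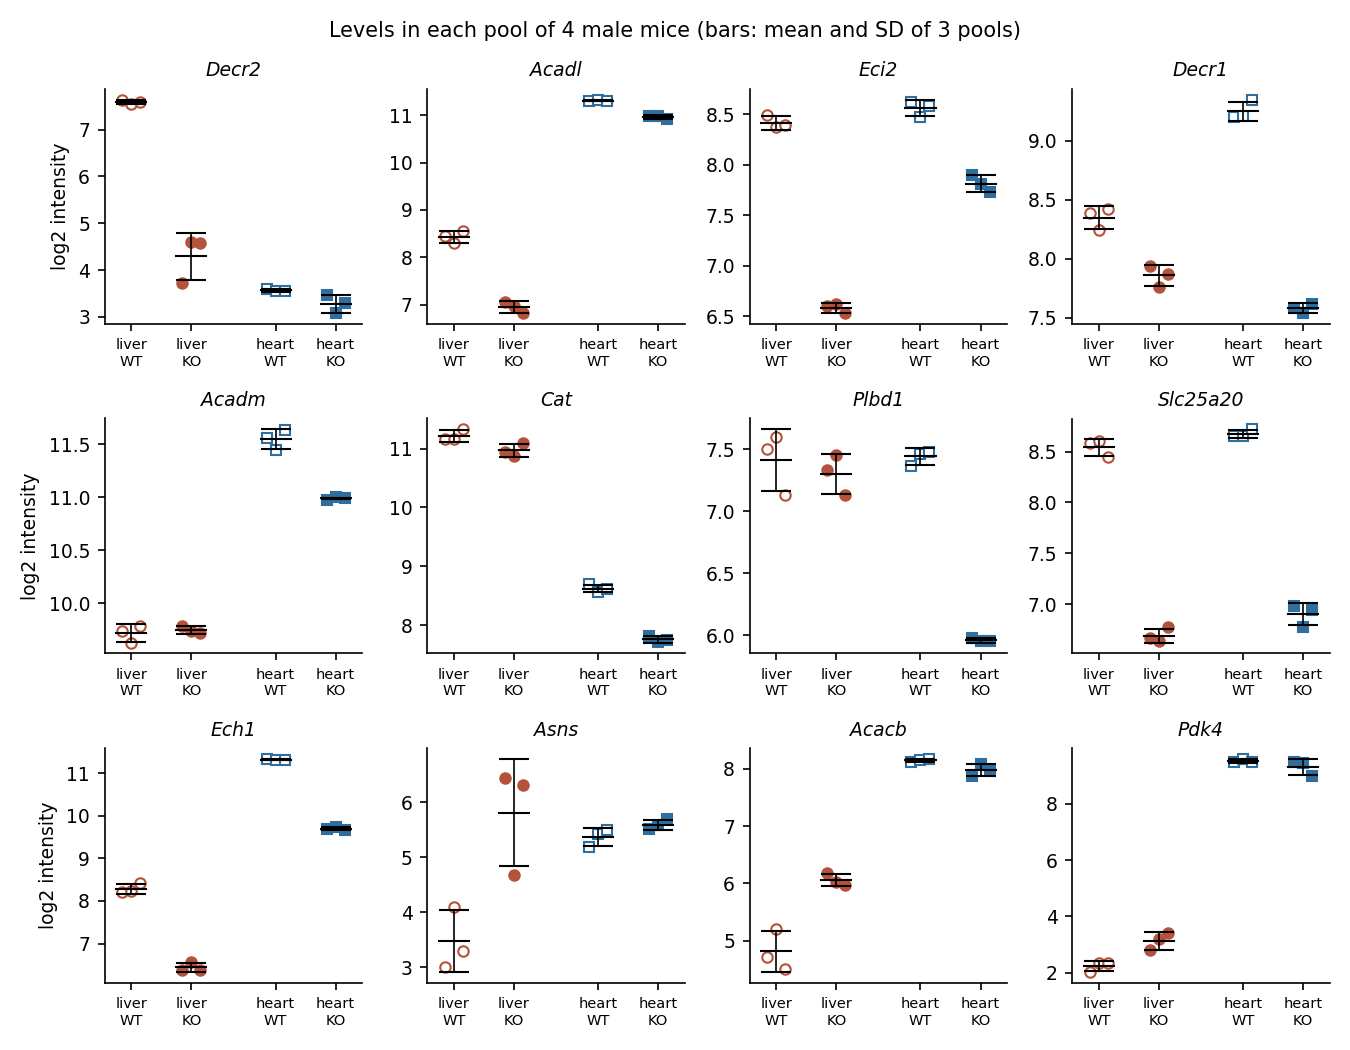
Log2 intensity of 12 genes in each pool of 4 male mice (points) with the mean and SD of 3 pools (bars), WT as open and KO as filled symbols, liver in red and heart in blue; each panel has its own axis, which does not start at 0. Decr2, Acadl and Eci2 dropped further in liver, Decr1, Acadm, Cat and Plbd1 further in heart, Slc25a20 and Ech1 in both tissues, and Asns, Acacb and Pdk4 were higher in KO liver than in WT liver.

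Around these pathways, ω-oxidation and fatty acid handling gave single genes. For these and the lists below, the share of all genes with a difference past the threshold was 0.517%. Among 8 ω-oxidation members the difference passed for Aldh3a2, the fatty aldehyde dehydrogenase. It read 6.86, 6.59 and 7.10 in WT liver and 6.0, 5.97 and 6.15 in KO liver, and 4.29, 3.78 and 4.17 in WT heart and 4.34, 4.56 and 4.51 in KO heart. It fell in liver while its heart pools stood slightly higher in KO (0.39, adjusted p = 0.399), and the difference was -1.20 (SE 0.193, limma adjusted p = 0.00137). Cyp4a14, a fatty acid ω-hydroxylase near background in heart, had a difference of -2.31 with a standard error of 0.598 and did not pass (limma adjusted p = 0.114), but passed without liver WT pool 2 (-3.15, 2.95e-05). Among 18 genes of uptake, binding and activation the difference passed for Acot2, Vldlr and Acsl6. Acot2, a mitochondrial acyl-CoA thioesterase, read 6.90, 7.22 and 6.97 in WT heart and 6.09, 5.66 and 5.83 in KO heart. In liver its pools overlapped, at 3.93, 3.21 and 3.37 in WT and 3.98, 3.48 and 3.75 in KO. The difference was 1.40 (SE 0.254, limma adjusted p = 0.00546), its other probe set gave 0.39, and the mean of both gave 0.89 (adjusted p = 0.0182). Vldlr, a lipoprotein receptor (0.63), was lost without liver pool 1, 2 or 6 or heart pool 3 or 6 (adjusted p of 0.0532 to 0.0827), and Acsl6, an acyl-CoA synthetase near background in liver (-0.90), without liver pool 1, 3 or 5 or heart pool 1, 2 or 4 (0.0527 to 0.095). With the mean of all probe sets both were lost as well, Vldlr at 0.41 (adjusted p = 0.064) and Acsl6 at -0.37 (0.451). Cd36, the fatty acid translocase, had a difference of 0.31 that did not pass (adjusted p = 0.875).

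Genes of fuel choice and synthesis included 2 that rose in liver, Acacb and Pdk4. Acacb, the mitochondrial form of acetyl-CoA carboxylase, whose product malonyl-CoA blocks the entry of acyl groups, was the 1 gene of 20 in the fatty acid synthesis list with a difference past the threshold. It read 4.71, 5.21 and 4.51 in WT liver and 6.18, 6.02 and 5.97 in KO liver, 2.37-fold higher, and 8.12, 8.16 and 8.17 in WT heart and 7.87, 8.09 and 7.97 in KO heart. The difference was 1.42 (95% interval 1.00 to 1.83, limma adjusted p = 0.000329; 0.033 for its other probe set and 0.73 for the mean of both, adjusted p = 0.0111), and the change of -0.17 in heart did not pass although the pools did not overlap. Within the same list Me1, Mlycd and Gpam fell in heart alone, with differences of 0.46, 0.47 and 0.58 that did not pass. Pdk4, the kinase that shuts off pyruvate dehydrogenase, was the 1 of 12 members of its list to pass. It read 2.03, 2.34 and 2.34 in WT liver and 2.80, 3.20 and 3.42 in KO liver, and 9.46, 9.59 and 9.48 in WT heart and 9.48, 9.44 and 8.96 in KO heart. Its heart pools overlapped, and the WT liver level was 0.22 below the liver array median, so the rise of 0.90 began near background. The difference was 1.12 (95% interval 0.67 to 1.57, limma adjusted p = 0.0104). Dgat2, the enzyme of the last step of triglyceride synthesis, had a difference of 0.66 (limma adjusted p = 0.0337) with no change past the threshold in either tissue, and it was lost without heart KO pool 4 (adjusted p = 0.0734) and without each other male pool except heart WT pool 3 and heart KO pool 5 (0.0519 to 0.128). Fbp2, the muscle fructose bisphosphatase, fell in heart from 4.76, 4.77 and 4.50 to 3.44, 3.50 and 3.26, while in liver it lay between 2.63 and 2.90 in both genotypes. The difference was 1.10 (limma adjusted p = 0.000734), and the WT liver level was 0.41 above the array median, which left less room than the heart fall of 1.28.

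Genes outside lipid oxidation gave several of the largest differences. In KO liver, Rtn4, an endoplasmic reticulum membrane protein known as Nogo, read 3.82, 4.43 and 4.90 against 6.71, 6.30 and 6.58 in WT. In heart it read 7.86, 7.73 and 8.01 in WT and 8.04, 7.92 and 8.12 in KO, which overlap. The difference was -2.30 (SE 0.235, limma adjusted p = 3.04e-06), and of its 4 other probe sets 1 gave -1.95 and 3 gave between -0.10 and 0.22. Cnmd, the cartilage and tendon protein chondromodulin, read 4.38, 4.83 and 4.71 in WT liver, 3.05, 3.21 and 3.37 in KO liver, 3.26, 3.17 and 3.82 in WT heart and 4.25, 3.75 and 4.58 in KO heart. It fell in liver and its heart pools overlapped around a higher KO mean (0.78, adjusted p = 0.141), and the difference was -2.20 (limma adjusted p = 2.26e-05). Casp8, the initiator caspase of death receptors, fell by 0.98 in liver and stood 0.46 higher in KO heart (adjusted p = 0.152), and the difference was -1.44 (limma adjusted p = 5.07e-05). The liver falls of Cyp26a1, which breaks down retinoic acid, and Cox6b2, a cytochrome oxidase subunit, gave differences of -1.39 (limma adjusted p = 0.0286) and -1.23 (0.00902). Both were within 0.13 of the array median in WT heart, and Cyp26a1 was lost without any heart pool or without liver pool 3, 4 or 5 (adjusted p of 0.0615 to 0.11; 0.07 without heart KO pool 4).

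Sarcomere genes appeared among the genes that fell in liver. Myom2, an M-band protein, read 5.80, 5.08 and 5.40 in WT liver and 2.97, 2.98 and 2.97 in KO liver, and 11.46, 11.36 and 11.59 in WT heart and 11.45, 11.46 and 11.36 in KO heart. The heart pools overlapped, and the difference was -2.41 (SE 0.198, limma adjusted p = 1.41e-07). Its other probe sets gave -0.81, -0.87 and 0.026, and the one used can cross-hybridize. Csrp3, a LIM protein of striated muscle and 1 of the 15 cardiomyocyte markers, read 5.0, 4.93 and 4.42 in WT liver and 3.77, 3.83 and 3.53 in KO liver, with overlapping heart pools between 11.43 and 11.57. Its difference was -1.12 (limma adjusted p = 0.00667). It was the only cardiomyocyte marker past the threshold, and the list's median in male liver was 2.22 to 2.30 in WT and 2.32 to 2.37 in KO, with 10 of the 15 at or below the array median in each genotype.

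On the positive side, Plbd1, a phospholipase B-like lysosomal protein, and Tesc, the calcium-binding protein tescalcin, fell in heart alone. Plbd1 read 7.36, 7.46 and 7.48 in WT heart and 5.98, 5.95 and 5.95 in KO heart, against 7.50, 7.60 and 7.13 in WT liver and 7.33, 7.45 and 7.13 in KO liver. Its liver pools overlapped and stood far above background, and the difference was 1.37 (95% interval 1.06 to 1.67, limma adjusted p = 8.58e-06). Tesc read 8.69, 8.72 and 8.60 in WT heart and 7.49, 7.49 and 7.46 in KO heart, with a difference of 1.29 (limma adjusted p = 2.53e-06). Its WT liver level was only 0.21 above the array median, which left no room for a like fall. Igsf23 fell by 0.78 in heart and stood 0.44 higher in KO liver (adjusted p = 0.302), and the difference was 1.21 (limma adjusted p = 0.00113), with 0.75 and 0.35 for its other probe sets and 0.77 for the mean of all 3 (adjusted p = 0.00175). Coq3 and Fah, named after their values were seen, also fell in heart alone. Coq3, a methyltransferase of ubiquinone synthesis, changed by -1.12 in heart and -0.29 in liver, with a difference of 0.83 that was lost without liver WT pool 1 (adjusted p = 0.0553). Fah, the last enzyme of tyrosine breakdown, changed by -0.73 in heart and 0.091 in liver, with a difference of 0.82.

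Of the genes that rose in liver, Asns, the asparagine synthetase, had the largest difference and the widest spread. It read 3.01, 4.10 and 3.29 in WT liver and 6.43, 4.68 and 6.32 in KO liver, 5.06-fold higher, and 5.19, 5.42 and 5.50 in WT heart and 5.51, 5.58 and 5.69 in KO heart. KO pool 5 stood well below the other KO livers, and the difference of 2.12 had a 95% interval of 1.23 to 3.00 (limma adjusted p = 0.0155). It was lost without liver pool 1, 3, 4 or 6 or heart pool 3 (0.0553 to 0.0649) and stood at 1.23e-05 without liver KO pool 5. Vldlr was the other member of 21 amino acid response genes past the threshold (0.63, limma adjusted p = 0.0198), and its WT liver level was 0.30 below the array median. Nnmt, the nicotinamide methyltransferase, read 7.62, 7.79 and 6.47 in WT liver and 9.58, 9.17 and 8.67 in KO liver, with overlapping heart pools between 2.83 and 3.11. The difference was 1.97 (SE 0.346, limma adjusted p = 0.00363). Meg3, an imprinted long noncoding RNA, read 4.26, 4.50 and 4.57 in WT liver and 6.54, 6.75 and 6.19 in KO liver, and 6.53, 6.82 and 6.63 in WT heart and 7.02, 6.80 and 6.94 in KO heart. The heart pools overlapped, and the difference was 1.79 (limma adjusted p = 2.71e-05). Its 11 probe sets gave from -0.17 to 2.18, and the one used can cross-hybridize. Tacc2, a centrosomal coiled-coil protein, had a difference of 1.30 (limma adjusted p = 0.012) without a change past the threshold in either tissue, and was lost without liver pool 2 or 4 or heart pool 6 (0.0501 to 0.0534).

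The other fuel and stress lists gave 1 gene or none with all pools, beside 0.517% of all genes. Ketone body genes gave 1 of 7 past the threshold (Bdh2, positive). In that list Bdh1, the mitochondrial hydroxybutyrate dehydrogenase, rose in heart (1.07, limma adjusted p = 0.0245), which was lost without heart KO pool 4 (1.05, adjusted p = 0.0996), and its difference between tissues did not pass. Gluconeogenesis and glycogen gave 1 of 13 (Fbp2), and the urea cycle and amino acid breakdown list 1 of 23 (Oat, 0.68), which was lost without heart KO pool 4 (adjusted p = 0.115) and without each other male pool except liver WT pool 3 (0.0554 to 0.178). No member passed among 19 PPAR and RXR receptors and coregulators, 19 genes of glycolysis, 16 of the tricarboxylic acid cycle, 25 of the respiratory chain and ATP synthase, 22 of the acute phase, 22 of the interferon response, 18 of the circadian clock, 22 immediate early genes, 11 of uncoupling and mitochondrial carriers, 15 of bile acid metabolism or 19 heat shock and chaperone genes. Among the last, the inducible chaperone Hspa1a passed without heart KO pool 4 (-0.81, limma adjusted p = 0.046), where it was higher in KO heart by 0.84 (adjusted p = 0.0367), against -0.64 (adjusted p = 0.237) with all pools. Nor did any of 13 hepatocyte, 11 adipocyte, 4 erythroid, 20 leukocyte, 12 endothelial or 14 fibroblast and stellate cell markers pass. The respiratory chain had differences from -0.29 to 0.18 with a median of 0.015. Cholesterol synthesis also had none of 19 past the threshold in males. Of the 19, 18 were below 0, against 8947 of all 18193 genes, with a median of -0.34 against 0.0031 over all genes. WT liver pool 2 read above WT pools 1 and 3 for Hmgcs1 (9.04 against 8.56 and 8.39) and Idi1 (7.97 against 7.25 and 7.53). It read below them for Insig1 (7.57 against 7.78 and 7.97) and Mvd (4.0 against 4.74 and 4.11). The part of this pool in the list's median was not tested.

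Genes measured in one tissue and near background in the other are given apart, since a fall there has no counterpart to be compared with. In liver, Mfsd2a, the lysophosphatidylcholine transporter, read 6.91, 6.95 and 7.0 in WT and 4.78, 4.2 and 4.60 in KO, and its difference was -2.43 (limma adjusted p = 9.27e-09). Its heart pools lay between 2.69 and 2.86, below the heart median. Adtrp read 7.69, 7.73 and 7.84 in WT liver and 6.16, 6.01 and 5.53 in KO liver, with a difference of -1.67. Rarres1 (-1.73), Igfbp2, an insulin-like growth factor binding protein (-1.37), and Vnn1, the pantetheinase (-1.30, and -0.61 for its other probe set), were also more negative in liver. Igfbp2 was lost without liver pool 2, 3, 4 or 5 or heart pool 3 or 6 (limma adjusted p of 0.0555 to 0.0737). Nat8, an N-acetyltransferase, rose in liver from 3.98, 3.95 and 4.91 to 5.96, 6.20 and 6.36, with a difference of 2.06 (limma adjusted p = 0.000102). Bdh2 (0.92) and Rdh16f2, a retinol dehydrogenase family member (0.99), rose in liver too. P3h4 and Apbb1 fell in heart and gave differences of 1.15 and 1.13, with liver pools at or below 2.51 and 2.44. The level rule separates close neighbours. Just inside it were Gm20559, Cdhr5, Nnmt and Btnl9, between 0.0071 and 0.019 above a median in their weaker tissue, and just outside Nat8, Adtrp, Bdnf and Myl1, between 0.019 and 0.04 below.

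Of 22 skeletal muscle markers, 3 rose past the threshold in KO heart and none fell past it. Over all genes 0.0824% rose past it in KO heart and 0.319% fell. Acta1, the skeletal muscle actin, stood lower in KO heart, a change that did not pass, and its WT and KO pools nearly met at 8.88 and 8.79. It read 10.05, 10.12 and 8.88 in WT heart and 8.79, 8.78 and 8.29 in KO heart. The median of the 22 markers was 3.00 to 3.24 in WT hearts and 3.32 to 4.54 in KO hearts, highest in pool 4, and 9 of the 22 were at or below the array median in WT and 6 in KO. Casq1, the calsequestrin of fast fibres, read 6.58, 5.77 and 6.23 in WT heart and 7.64, 8.0 and 7.67 in KO heart. Tnnt1, the slow skeletal troponin T, read 4.49, 4.36 and 4.79 in WT heart and 5.72, 5.48 and 5.58 in KO heart. Myl1, a fast myosin light chain, read 6.10, 6.16 and 6.02 in WT heart and 7.24, 6.72 and 6.66 in KO heart. All 3 rose without overlap, the high pool 4 standing out only for Myl1. Their differences between tissues were -1.57, -1.09 and -0.93, and the list had no other member past the threshold. Without heart KO pool 4 the heart changes were 1.64 for Casq1, 0.98 for Tnnt1 and 0.60 for Myl1, the same 3 members passed in heart, and the list's median difference moved from -0.26 to -0.027. The median of 20 leukocyte markers was 3.72 to 3.78 in WT hearts and 3.90 to 4.28 in KO hearts, and that of 12 endothelial markers 6.64 to 6.81 and 6.70 to 6.90. The part of other cell types in the heart changes was not tested.

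**Figure D4:**
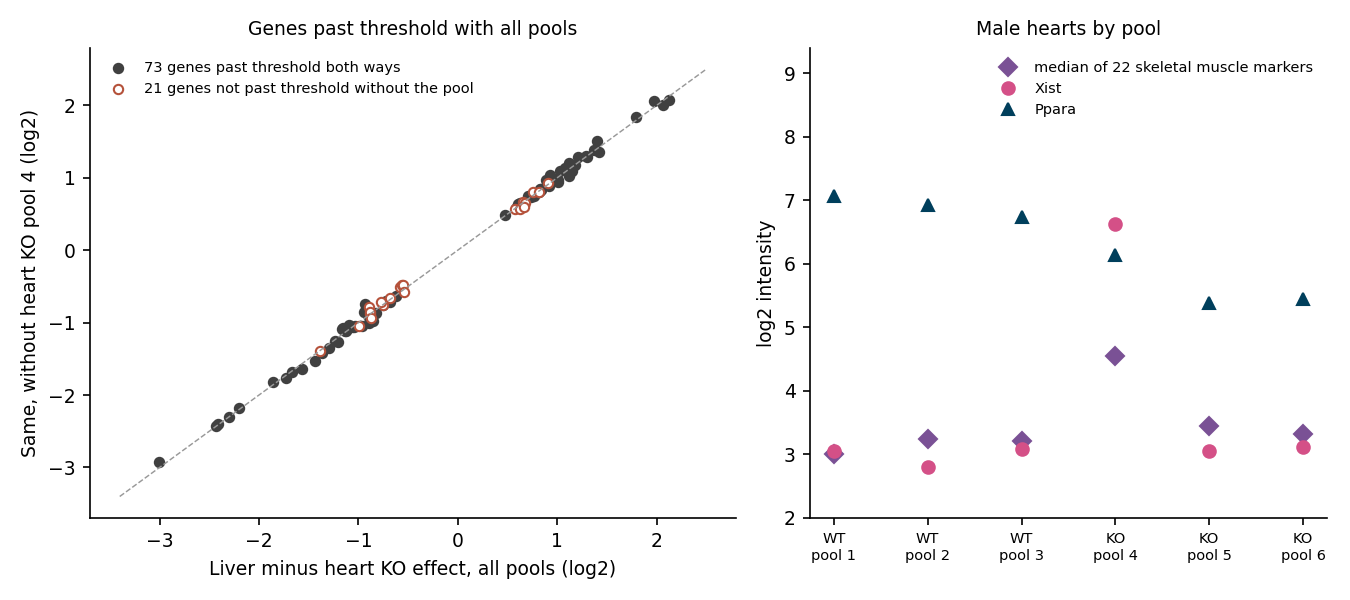
Left, the liver minus heart KO effect (log2) of the 94 genes past the threshold with all male pools against the same value without heart KO pool 4; the dashed line marks equality and open circles the 21 genes lost. Right, log2 intensity of Xist, Ppara and the median of 22 skeletal muscle markers in each male heart pool, where pool 4 stands apart at 6.62, 6.13 and 4.54.

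In females the same comparison (pools 7 to 12) gave 127 genes past the threshold (0.698%), or 110 without heart pool 10 (0.605%). Of the 94 male genes, 48 also passed in females with the same sign and 92 had the same sign (44 and 92 without heart pool 10). Of the 68 measured in both tissues, 37 passed in females (34 without heart pool 10) and 67 had the same sign (67 again). Among the oxidation enzymes, Decr2 (-3.12), Acadl (-1.08), Eci2 (-1.38), Eci1 (-1.05) and Decr1 (1.04) passed in females as well, while Acadm (0.18, limma adjusted p = 0.809) and Acaa2 (0.39, 0.0868) did not. Plbd1, Tesc, Fbp2, Meg3 and Cat passed too, at 1.77, 1.09, 1.41, 2.26 and 0.72. Asns and Nnmt stood at 0.12 and 0.13 in females and did not pass. Without heart pool 10 the same 10 genes passed and the same 4 did not, and Cat moved most, to 0.77.

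A direct test of the male minus the female difference passed for 10 genes (0.055%). Vnn1 was the extreme: its liver mean was 3.51 in WT and 2.27 in KO males, and 7.11 in WT and 2.34 in KO females, so the female difference was -4.75 and the male minus female value 3.45 (limma adjusted p = 7.14e-10). The other Vnn1 probe set, which can cross-hybridize, gave a male difference of -0.61. It read 2.49 in male WT liver, near the array median. Myom2 was at 2.57 and 2.35 in female liver, near background, and gave -2.19 (limma adjusted p = 0.000545). Retsat gave 1.97 (limma adjusted p = 0.00181): the WT and KO means were 9.45 and 6.38 in liver of females against 9.14 and 8.02 in males, while the hearts read 7.03 and 5.96 in females against 7.10 and 6.01 in males. Nat8 stood at 3.11 and 3.27 in female liver and gave 2.08 (limma adjusted p = 0.0264), and Rad51b, a DNA repair protein at 5.38 in WT and 2.97 in KO female liver and at 3.15 and 2.80 in male liver, gave 1.94 (0.00214). Hmgcs1, Idi1 and Fdft1 of cholesterol synthesis and Cyp7b1, an oxysterol hydroxylase, were more positive in females, by -1.99, -1.68, -1.37 and -1.93 as males minus females. Hmgcs1 read 8.96 in WT and 10.54 in KO female liver on average, against 8.66 and 8.33 in males, with heart means between 6.80 and 6.91. The tenth gene, the sulfotransferase Sult5a1, moved the same way in both sexes and further in females (-1.53, limma adjusted p = 0.0184). Without heart pools 4 and 10, a choice made after seeing the data, 5 of the 10 remained (Vnn1, Myom2, Retsat, Rad51b and Nat8), and the cholesterol genes, Cyp7b1 and Sult5a1 had adjusted p of 0.0579 to 0.0998.

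**Figure D5:**
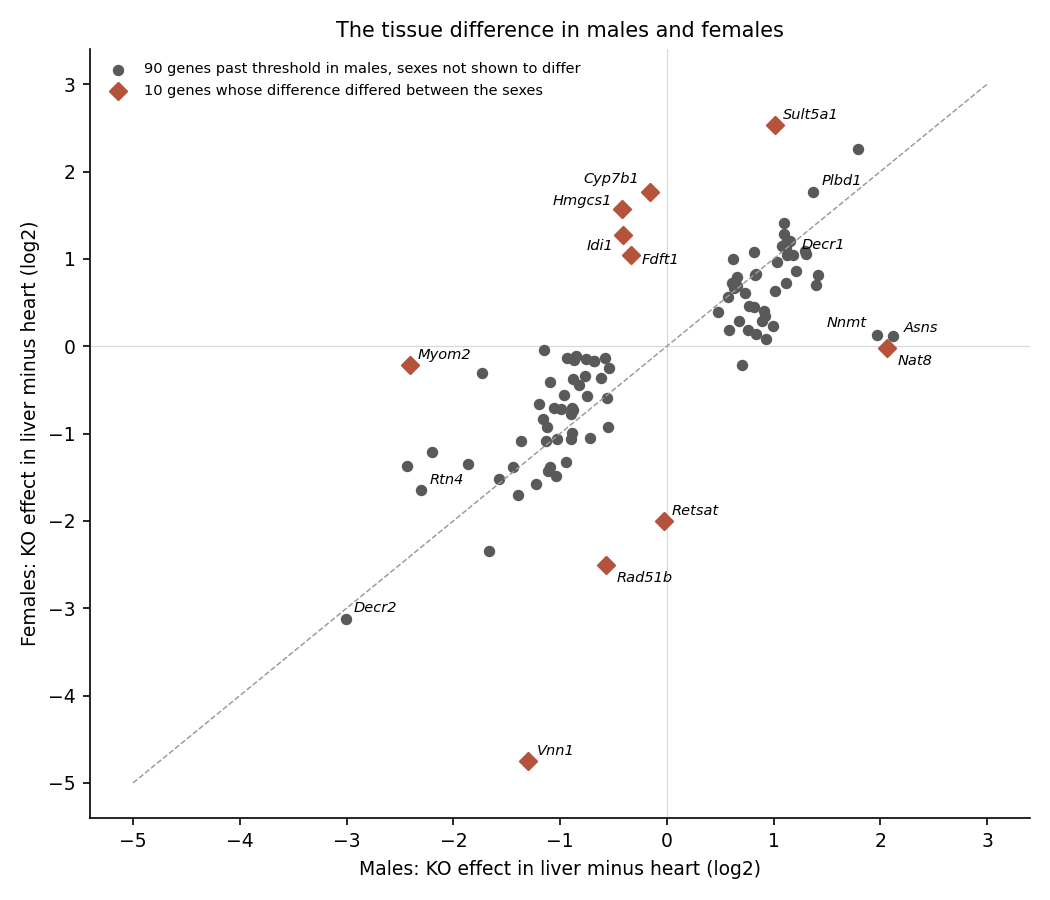
Liver minus heart KO effect (log2) in males on the horizontal axis and in females on the vertical axis for the genes past the threshold in males or in the test between the sexes; the dashed line marks equality. Diamonds are the 10 genes whose difference differed between the sexes, with Vnn1 at -1.30 in males and -4.75 in females.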

How the data were processed

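Liver and heart RNA was measured on 24 arrays, 3 pools in each of 8 groups by tissue, sex and genotype. The deposited values are log2 intensities that the authors made with RMA, per the submitters' processing notes. Its version and the build are not given in the sources used here. Since the array medians differ by tissue, liver and heart were probably normalized apart, and every difference was first formed within a tissue. The number of arrays limits the precision, which is that of 3 pools a group.

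Of 45101 probe sets, 64 controls were left out, 34945 had 1 gene symbol in the platform annotation and 932 several (not named). The probe set with the highest mean over the 24 arrays stood for its gene, which gave 18193 genes, 9010 of them with several probe sets and 1417 represented by one that can cross-hybridize. By Entrez identifier, 18032 matched RefSeq.

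limma 3.58.1 in R 4.3.3 (lmFit, eBayes) was fitted with 1 mean per group to all 24 arrays for the liver minus heart KO effect, and to the 12 arrays of a tissue for the KO effect within it. Tests were two-sided, and p-values were adjusted over all genes by Benjamini-Hochberg with a threshold of 0.05. The script was tested on simulated data. The labels do not say that pools of a number share animals, so the fit has no block. The members and the 32 gene lists were chosen with earlier results of these data known, so list counts are descriptions.

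Named were the 10 most negative and 10 most positive differences measured in both tissues, 5 each way near background in 1 tissue, 8 genes that moved one way in both tissues, 4 each way between the sexes, up to 4 members of each list and a fixed set. Others are said to be chosen after their values were seen, or are the remaining members of a list or count. Alternatives were the arrays fitted, the variance model, array weights, renewed quantile normalization, centring, the level filter and the handling of probe sets. Others were a block by pool number and fits that leave out 1 male pool at a time. Gene coordinates were used for the promoter windows alone, and proteins were not used.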

Additional observations from a re-analysis of the deposited data

Results flagged for a closer look

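The difference between liver and heart in the KO effect (log2, limma, adjusted over all genes) is itself the test of a difference between groups, and the genes named above that passed it are listed with their values. Among fatty acid oxidation and peroxisomal genes the values were -3.01 for Decr2, -1.16 for Pxmp4, -1.13 for Acadl, -1.09 for Eci2, -1.04 for Acaa1b, -0.72 for Eci1, -0.62 for Lonp2 and -0.56 for Hsd17b4, and 1.18 for Decr1, 0.61 for Cat, 0.59 for Acadm and 0.48 for Acaa2. Among other genes of lipid and fuel handling they were -1.20 for Aldh3a2 and -0.90 for Acsl6, and 1.42 for Acacb, 1.40 for Acot2, 1.12 for Pdk4, 1.10 for Fbp2, 0.92 for Bdh2, 0.66 for Dgat2 and 0.63 for Vldlr. Muscle genes gave -2.41 for Myom2, -1.57 for Casq1, -1.12 for Csrp3, -1.09 for Tnnt1 and -0.93 for Myl1. The remaining negative values were -2.43 for Mfsd2a, -2.30 for Rtn4, -2.20 for Cnmd, -1.73 for Rarres1, -1.67 for Adtrp, -1.44 for Casp8, -1.39 for Cyp26a1, -1.37 for Igfbp2, -1.30 for Vnn1 and -1.23 for Cox6b2. The remaining positive values were 2.12 for Asns, 2.06 for Nat8, 1.97 for Nnmt, 1.79 for Meg3, 1.37 for Plbd1, 1.30 for Tacc2, 1.29 for Tesc, 1.21 for Igsf23, 1.15 for P3h4, 1.13 for Apbb1, 1.01 for Sult5a1, 0.99 for Rdh16f2, 0.83 for Coq3, 0.82 for Fah and 0.68 for Oat.

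The same difference was tested between the sexes, as males minus females. It was 3.45 for Vnn1, 2.08 for Nat8, 1.97 for Retsat and 1.94 for Rad51b, and -2.19 for Myom2, -1.99 for Hmgcs1, -1.93 for Cyp7b1, -1.68 for Idi1, -1.53 for Sult5a1 and -1.37 for Fdft1. Xist, which no comparison of the report uses, stood at 6.62 in heart KO pool 4, labelled male, above every other male heart.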

How the results depend on the processing

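Of the 51 genes named with a difference between tissues past the threshold, 30 passed under every alternative run and 21 were lost under at least 1, while 7 of 33 named genes below the threshold passed under at least 1; no called difference changed sign. Apart from fits that leave out pools or add a block, Cat and Oat were lost with centring on array medians, Cat, Lonp2, Vldlr and Acsl6 with the mean of all probe sets, Oat with only genes above the median in both tissues, Asns, Acaa2 and Dgat2 with the male arrays alone, Cyp26a1 with renewed quantile normalization, Asns with a trended and robust variance, and Acaa2 and Vldlr without probe sets that can cross-hybridize. When only genes above the median in both tissues were tested, 62 passed, against the 68 of the 94 that are such genes. With the pool number as a replicate block and without pool 4 of both tissues, the 94 became 47 and the 68 became 34. The other whole-set alternatives gave 67 to 109. The test between the sexes, with 10 genes, gave 17 with array weights, 6 with the mean of all probe sets and 5 with the replicate block. It gave 5 without heart pools 4 and 10, an alternative chosen after seeing the data. With only genes above the median in both tissues tested it gave 6, and 6 of the 10 are such genes. The liver KO effect, with 110 genes, gave 169 when only the 6 compared arrays were fitted. The cause of these shifts was not tested, apart from the smaller number of genes or arrays where these were dropped. Leaving out 1 male pool at a time gave 65 to 86 genes for the difference between tissues (46 to 62 measured in both). The test between the sexes then gave 7 to 14, the liver KO effect 55 to 80 and the heart KO effect 63 to 81. No female pool was left out in this way, so the test between the sexes was not checked against each female pool. Of the replicate pairs, female liver KO pools 10 and 12 were the least alike (correlation of 0.9863 over all genes). Liver and heart pools of the same number deviated from their group means with correlations of -0.209 to 0.112 over 10544 genes. In male pools these were -0.00271 to 0.0787. With 3 arrays a group such deviations also carry array noise, so they cannot show whether pools of a number share animals. The labels do not say so, and the main fit has no block. The replicate block alone gave 67 genes for the difference between tissues, 48 of them measured in both. With 3 pools a group, small differences such as those of Acaa2, Cat, Dgat2 and Oat lay close to the threshold, and for genes within 0.5 of an array median (19 of the 68) a fall in that tissue cannot be followed far.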
